A study of Mus musculus with 40 samples.

Results

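The genes described here are the 9 genes of the core circadian clock loop that were named for this work: the activators Arntl, Npas2 and Clock, the repressors Cry1, Per1, Per2 and Per3, and the nuclear receptors Nr1d1 and Nr1d2. They were found by their symbol in the platform annotation, which gave 15 of 22626 probe sets that are not controls, and 9 of 12393 genes tested, so every member was measured. Cry2 was not among the members and was counted with the clock modulators. The members were chosen with earlier results of these data known, so their counts beside the shares of all genes are descriptions. The study measured RNA from whole mouse lung on 40 Affymetrix arrays, 5 in each of 8 groups: lungs of the AJ and C3H strains that had been given PBS alone or PBS with allergen by aspiration, collected 6 h or 24 h later. The titles of the allergen arrays say OVA and their descriptions say HDM, so it is named only as allergen. The AJ strain is termed hyperresponsive in the labels, and every description names AJ although 20 titles carry C3H, so the strain was read from the titles. The labels give neither age, sex nor the hour of the day at collection, and the time after aspiration and the hour of collection cannot be told apart. They do not say that each array is a separate mouse, so the p-values measure the spread between these arrays.

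In the mammalian clock, ARNTL (BMAL1) pairs with CLOCK or NPAS2 and switches on genes through E-boxes, among them the Per and Cry genes, whose proteins return to inhibit the pair. The same pair drives Nr1d1 and Nr1d2, which encode the REV-ERB repressors, and these bind RORE sites and hold down Arntl, Npas2 and Cry1. The lung has a running clock of its own, and glucocorticoids are known to induce Per1 and Per2.

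Promoter windows from RefSeq, on the mouse build GRCm38.p6, reach from 250 bases before to 50 bases after a gene's start. They matched 8 of the 9 members, all but Per2, with 12 windows. Both strands were searched for the E-box CACGTG, the E-prime box CACGTT, the D-box TTANGTAA and the RORE core as TAGGTCA or TGGGTCA, and no 2 matches overlapped. Over all 32851 windows of 300 bases, 7.15% held the E-box, 4.68% the E-prime box, 2.32% the D-box and 6.45% the RORE core. The 5 windows that held a match are shown so that the letters can be seen. Npas2 and Nr1d2, which also changed, had windows without a match. Capitals mark the matches, and each window runs 5′ to 3′ on its gene's strand. They are the second start of Arntl at chr7:113207261-113207560 (plus strand), Cry1 at chr10:85185005-85185304 (minus), Nr1d1 at chr11:98775328-98775627 (minus), the first start of Per1 at chr11:69098699-69098998 (plus) and Per3 at chr4:151044616-151044915 (minus).
Arntl: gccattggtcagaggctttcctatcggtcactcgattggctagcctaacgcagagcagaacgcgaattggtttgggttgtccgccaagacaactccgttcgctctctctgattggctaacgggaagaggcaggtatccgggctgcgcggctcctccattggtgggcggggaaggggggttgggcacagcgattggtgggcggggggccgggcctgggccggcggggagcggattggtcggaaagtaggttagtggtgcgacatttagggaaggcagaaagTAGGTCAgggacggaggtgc
Cry1: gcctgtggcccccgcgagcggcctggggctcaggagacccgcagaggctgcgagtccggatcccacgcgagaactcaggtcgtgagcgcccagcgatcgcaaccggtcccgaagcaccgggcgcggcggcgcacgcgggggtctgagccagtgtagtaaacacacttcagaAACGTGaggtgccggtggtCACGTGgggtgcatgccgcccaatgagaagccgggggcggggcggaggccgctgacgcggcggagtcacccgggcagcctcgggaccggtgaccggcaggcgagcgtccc
Nr1d1: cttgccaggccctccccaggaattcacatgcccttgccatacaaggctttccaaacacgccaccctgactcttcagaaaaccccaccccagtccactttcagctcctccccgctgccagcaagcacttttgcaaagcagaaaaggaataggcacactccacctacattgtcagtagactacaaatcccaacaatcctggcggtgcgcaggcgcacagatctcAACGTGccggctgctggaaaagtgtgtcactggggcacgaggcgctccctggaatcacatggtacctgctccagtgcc
Per1: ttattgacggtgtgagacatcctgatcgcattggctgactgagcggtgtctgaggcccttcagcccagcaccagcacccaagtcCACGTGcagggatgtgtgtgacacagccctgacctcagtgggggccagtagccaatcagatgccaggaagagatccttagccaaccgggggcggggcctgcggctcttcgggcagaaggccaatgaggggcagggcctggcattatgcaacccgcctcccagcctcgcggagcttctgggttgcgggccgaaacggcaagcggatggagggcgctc
Per3: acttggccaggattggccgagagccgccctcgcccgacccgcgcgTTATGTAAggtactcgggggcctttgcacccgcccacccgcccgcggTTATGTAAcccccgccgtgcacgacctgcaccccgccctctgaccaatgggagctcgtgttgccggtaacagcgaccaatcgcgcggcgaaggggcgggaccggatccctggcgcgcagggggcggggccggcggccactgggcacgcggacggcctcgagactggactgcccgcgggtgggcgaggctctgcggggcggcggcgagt
The Arntl window held a RORE core at bases 281 to 287, counted from the window's 5′ end. The Cry1 window held an E-box at 191 to 196 and an E-prime box at 172 to 177, the latter read on the opposite strand. Nr1d1 held an E-prime box at 223 to 228, also on the opposite strand, and Per1 an E-box at 85 to 90. Per3 held the D-box letters in 2 places, at 46 to 53 and at 93 to 100. The other 7 windows held none of these letters. These are matches of letters only, and the arrays did not measure binding.

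The values are the authors' scaled probe set intensities, and differences are on the log2(intensity + 16) scale, where 1 is a doubling of a bright signal and changes of dim genes are understated. Where a gene had several probe sets, the brightest one stood for it. A change was called where the adjusted p of limma, with Benjamini-Hochberg adjustment over all 12393 genes, was under 0.05. The lung label held, with Sftpc, a surfactant gene of alveolar type II cells, between 4206 and 8585 on every array. Array medians ran from 63.7 to 81.3. The log2 ratios of the 3′ to the 5′ probe sets of the Gapdh and actin controls served as RNA quality ratios. In both controls they were highest on AJ allergen replicate 1 (0.86 and 0.94) and AJ PBS replicate 3 (0.84 and 0.88), both at 6 h. Replicate 2 of the C3H PBS group at 6 h stood apart, with a mean correlation of 0.94 with the rest of its group where the other arrays had at least 0.96, and the allergen differences in C3H at 6 h are given without it too where a call or sign changes or the value moves by over 1.5 times, and for those that passed.

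**Figure D1:**
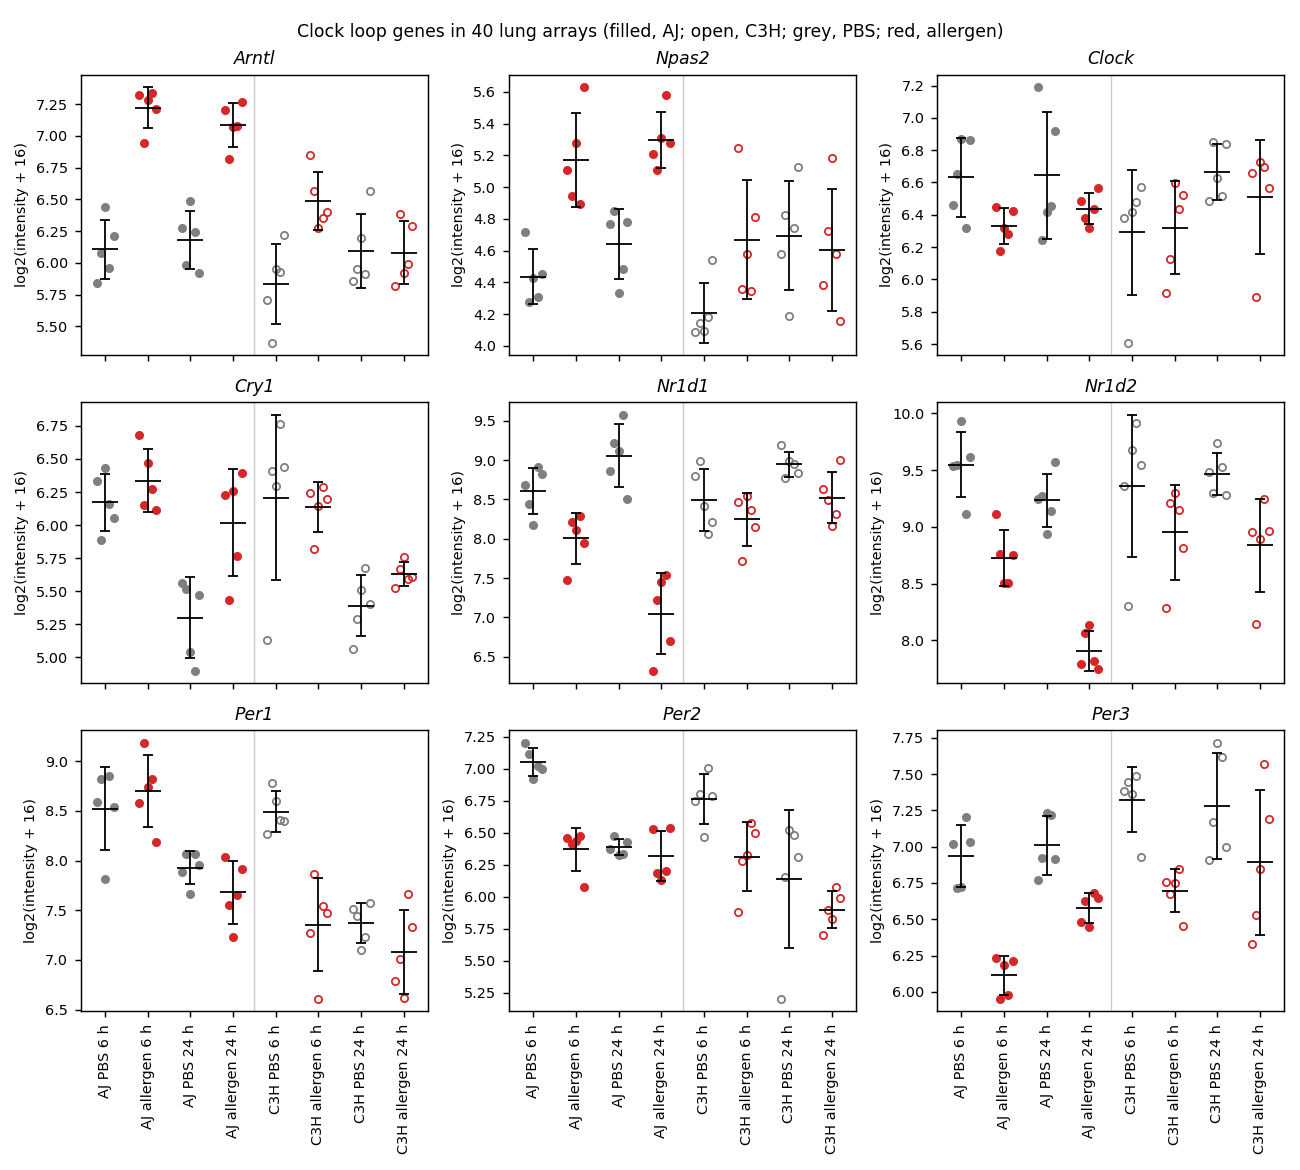
Level of the 9 genes, as log2(intensity + 16), on each of the 40 arrays, with 1 panel per gene, 1 column per group, points for arrays and bars for the group mean and SD (n = 5). Arntl stood highest in the AJ allergen groups at both times, where Nr1d1 and Nr1d2 stood lowest at 24 h, and the PBS group means of Per1 and Per2 were higher at 6 h than at 24 h.

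In AJ lungs at 6 h, allergen and PBS differed in 6 of the 9 clock genes: Arntl and Npas2 rose, and Nr1d1, Nr1d2, Per2 and Per3 fell. Of all genes tested, 19% passed in this comparison, 7.04% higher and 12% lower. Of all calls, 37% were higher, or 53.3% with arrays centred on their medians. The median difference was -0.30 over the members and -0.07 over all genes. In 5 of the 6 the allergen and PBS arrays did not overlap, as in 13.6% of all genes. In whole lung RNA, fewer cells of a type and less RNA per cell cannot be told apart.

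Arntl encodes the obligate activator of the loop. In AJ lungs at 6 h it read 41.3, 51.7, 70.7, 46.2 and 58.3 in the PBS arrays and 144, 107, 139.6, 146 and 133 in the allergen arrays. Every allergen array lay above every PBS array. The rise was 1.11 ± 0.15 (log2, SE, 5 arrays per group; limma adjusted p = 4.58e-07), or 2.17-fold. At 24 h the PBS arrays read 61.3, 47.3, 73.5, 59.9 and 44.5 and the allergen arrays 131, 96.7, 118, 119 and 138. The groups again did not overlap, and the rise was 0.90 ± 0.15 (adjusted p = 5.27e-05).

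In C3H lungs Arntl rose at 6 h and did not pass at 24 h. At 6 h it read 36.2, 25.4, 45.8, 44.9 and 58.6 with PBS and 99.6, 78.5, 61.4, 65.8 and 68.6 with allergen. The highest PBS array lay just under the lowest allergen array, and the rise was 0.65 ± 0.15 (limma adjusted p = 0.00394). Without PBS replicate 2 it was 0.54 (adjusted p = 0.0245), and with only these groups fitted the adjusted p was 0.0579. At 24 h the PBS arrays read 41.9, 45.8, 57.4, 44.4 and 78.6 and the allergen arrays 40.3, 67.7, 44.4, 47.5 and 62.5. These overlapped fully, and the difference was -0.02 with a 95% interval of -0.32 to 0.29. The test of the strain difference of the allergen effect at 24 h gave -0.92 ± 0.21 for C3H minus AJ (adjusted p = 0.038). That call was lost with pseudocount 1, with only those groups fitted, with muscle and adipose means as covariates (adjusted p = 0.149) and when any of 9 of the 20 arrays was left out singly. Ordered by level, the AJ allergen groups came first and did not differ from each other beyond the pooled SD of 0.24, C3H allergen at 6 h came next, and the 5 remaining groups followed between 6.18 and 5.83.

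Npas2, a paralogue of Clock that also pairs with ARNTL, was dim, with 29 of 40 arrays under the pseudocount of 16. In AJ lungs at 6 h it read 10.3, 3.37, 5.50, 3.81 and 5.90 with PBS and 18.5, 14.7, 22.7, 13.7 and 33.5 with allergen. At 24 h it read 11.2, 12.9, 4.14, 6.41 and 11.4 with PBS and 21.0, 18.5, 23.7, 31.8 and 22.8 with allergen. The groups did not overlap at either time. The rise was 0.73 ± 0.18 at 6 h (limma adjusted p = 0.00197) and 0.65 ± 0.18 at 24 h (adjusted p = 0.0134). Its size follows the pseudocount, from 0.27 to 1.69 over the alternatives at 6 h, and at 24 h the call was lost with pseudocount 1 (adjusted p = 0.0748) and without AJ PBS replicate 3 (adjusted p = 0.0526). The other probe set of Npas2 was under 16 on all 40 arrays and differed by -0.07 at 6 h. In C3H lungs Npas2 did not pass, at 0.46 ± 0.18 (adjusted p = 0.111) at 6 h and -0.09 ± 0.18 at 24 h. The C3H call at 6 h also follows the pseudocount. With pseudocount 1 the value was 1.62 and passed (limma adjusted p = 0.0333, over all probe sets), and with 64 it was 0.15 (adjusted p = 0.215).

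Clock, the usual partner of ARNTL, passed in none of the comparisons. Its intensities ran from 32.8 to 129.9 over the 40 arrays. The 8 group means spanned 0.37 on the log2 scale, little more than the pooled SD of 0.28, and no neighbouring groups in their order differed beyond it. Against PBS, allergen lungs differed by -0.30 in AJ at 6 h (95% interval -0.65 to 0.05), by -0.21 in AJ at 24 h, by 0.03 in C3H at 6 h and by -0.16 in C3H at 24 h. Without C3H PBS replicate 2, where Clock read 32.8 against 67.3 to 79.0 on the other 4, the C3H value at 6 h was -0.14 (limma adjusted p = 0.743).

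**Figure D2:**
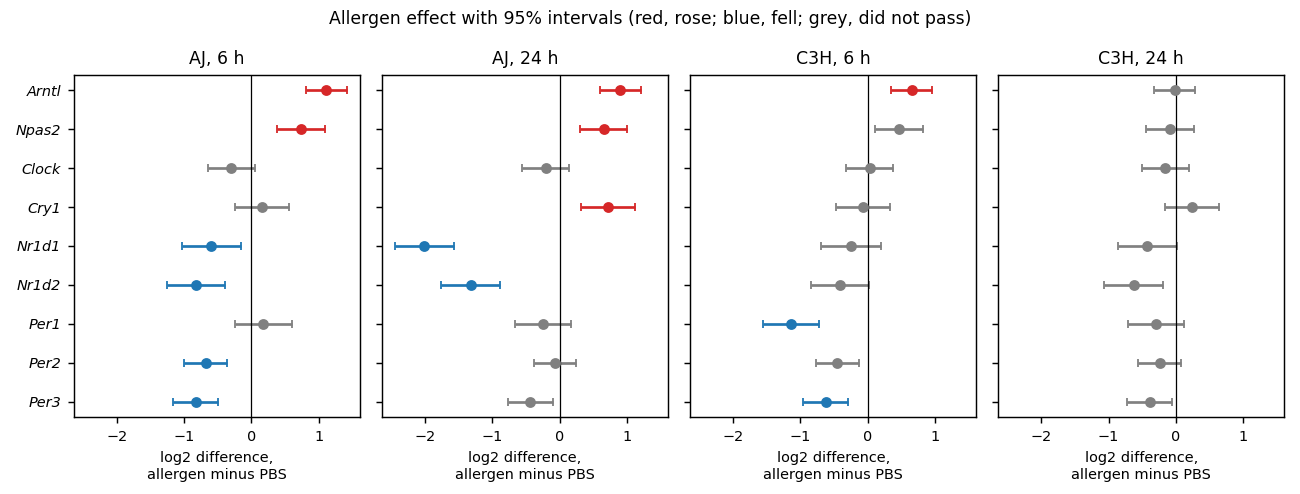
Difference between allergen and PBS for each gene, as log2 with 95% intervals from limma, in AJ and C3H lungs at 6 h and 24 h (5 arrays per group). Red marks genes that rose, blue genes that fell and grey genes that did not pass: 6 passed in AJ at 6 h, 5 in AJ at 24 h, 3 in C3H at 6 h and 0 in C3H at 24 h.

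In AJ lungs at 24 h, 5 of the 9 genes passed, against 7.8% of all genes: Arntl, Npas2 and Cry1 rose, and Nr1d1 and Nr1d2 fell. Of all genes, 4.55% rose and 3.25% fell. The members' median difference was -0.21, beside -0.00 over all genes. Counting Per3, which did not pass, the groups did not overlap in 5 of the 9, as in 8.67% of all genes. Without AJ PBS replicate 3, 3 genes passed, since Npas2 and Cry1 did not.

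The 2 REV-ERB genes fell furthest at that time. Nr1d1, a heme-binding repressor of Arntl, read 449.9, 582, 539, 745 and 346 in AJ PBS arrays at 24 h and 64.1, 134, 159, 169.7 and 88.3 in the allergen arrays. Every allergen array lay far below the lowest PBS array. The fall was -2.01 ± 0.22 (log2, limma adjusted p = 1.27e-08), which leaves 0.249 of the PBS level. At 6 h the PBS arrays read 396, 331, 274, 465 and 437 and the allergen arrays 162, 281, 259.9, 297 and 231. These overlapped, and the fall of -0.60 ± 0.22 only just passed (adjusted p = 0.0478). That call was lost under 6 of 11 alternative settings, with an adjusted p of up to 0.115. It was also lost when any of 7 of the 10 arrays was left out singly, with an adjusted p of 0.164 without allergen replicate 1. The time difference of the allergen effect in AJ, 24 h minus 6 h, was -1.41 ± 0.31 (adjusted p = 0.00319), and Nr1d1 was the single member of 9 that passed there, against 5.63% of all genes. The same test in C3H passed in 0 of the 9 (3 at an unadjusted p under 0.05), against 0.88% of all genes.

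In C3H lungs Nr1d1 did not pass. It read 429, 493, 327, 249.9 and 281 with PBS and 339, 194, 357, 315 and 267 with allergen at 6 h. At 24 h it read 568, 422, 492, 477 and 441 with PBS and 382, 344, 269.5, 303 and 497 with allergen. Both pairs of groups overlapped, with differences of -0.25 ± 0.22 (-0.12 without PBS replicate 2 at 6 h) and -0.43 ± 0.22. The strain difference of the allergen effect at 24 h was 1.58 ± 0.31 (C3H minus AJ, limma adjusted p = 0.0101). Of the 9 members 2, Nr1d1 and Arntl, passed this test, against 0.46% of all genes. With the muscle and adipose means as covariates, a fit in which 7 genes in all passed, the value for Nr1d1 was 1.41 (adjusted p = 0.104).

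Nr1d2, its paralogue, fell in AJ at both times. At 6 h it read 727, 731, 959.6, 539 and 769 with PBS and 537, 418, 348, 347 and 415 with allergen, where the highest allergen array lay just under the lowest PBS array. At 24 h it read 591, 600.5, 474, 549 and 745 with PBS and 205, 252, 264, 209.8 and 198 with allergen, well apart. The falls were -0.82 ± 0.21 (limma adjusted p = 0.00463) and -1.32 ± 0.21 (adjusted p = 3.49e-05). The second probe set of Nr1d2 gave -0.55 (adjusted p = 0.0586, over all probe sets) and -1.07 (adjusted p = 0.000421). In C3H lungs the brightest probe set gave -0.41 ± 0.21 at 6 h (adjusted p = 0.293) and -0.63 ± 0.21 at 24 h (adjusted p = 0.0997). Without C3H PBS replicate 2, which read 300.2 where the other 4 read 639 to 951, the value at 6 h was -0.67 and passed (adjusted p = 0.0249). For both genes the AJ allergen group at 24 h was the lowest of the 8, more than the pooled SD below AJ allergen at 6 h, and the remaining 7 groups followed in steps smaller than that SD.

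Cry1, the main repressor of the ARNTL pair, rose in AJ lungs at 24 h. It read 31.3, 29.8, 17.0, 13.9 and 28.3 with PBS and 59.1, 27.2, 60.5, 38.5 and 68.2 with allergen. One allergen array lay within the PBS range. The rise was 0.72 ± 0.20 (limma adjusted p = 0.0171). It was lost with the muscle and adipose covariates (0.56, adjusted p = 0.237) and when any of 5 of the 10 arrays was left out singly (adjusted p up to 0.065). The other 3 allergen comparisons of Cry1 gave 0.16 ± 0.20 in AJ at 6 h, -0.07 ± 0.20 in C3H at 6 h (-0.02 without PBS replicate 2) and 0.24 ± 0.20 in C3H at 24 h.

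In C3H lungs at 6 h, 3 of the 9 genes passed, against 7.67% of all genes: Arntl rose, and Per1 and Per3 fell. Of all genes, 3.95% rose and 3.72% fell. In all 3 the groups did not overlap, as in 5.72% of all genes, and the members' median was -0.25 beside -0.00. Without C3H PBS replicate 2, 4 passed, with Per1 at -1.07 and Per3 at -0.60.

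Per1, a period gene that glucocorticoids and stress signals induce quickly, responded differently in the strains at 6 h. In C3H lungs it read 291, 425, 373, 325 and 322 with PBS and 139, 217, 81.8, 171 and 162 with allergen. Every allergen array lay below every PBS array, and the fall was -1.14 ± 0.21 (limma adjusted p = 0.000223). In AJ lungs it read 369, 436, 209, 446 and 355 with PBS and 366, 565, 411, 437 and 276 with allergen. These overlapped, with a difference of 0.18 and a 95% interval of -0.24 to 0.60. The strain difference of the allergen effect was -1.32 ± 0.29 (C3H minus AJ, adjusted p = 0.00783). Per1 was the single member of 9 that passed it, against 2.17% of all genes, and it passed in all 11 alternative settings and without any 1 of the 20 arrays. At 24 h the effect did not pass in either strain, at -0.25 ± 0.21 in AJ and -0.29 ± 0.21 in C3H.

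Per2, a period protein that steadies the CRY repressors, fell in AJ at 6 h. It read 131, 123, 105, 114 and 112 with PBS and 71.9, 68.9, 70.7, 72.8 and 51.4 with allergen. The groups lay well apart, and the fall was -0.68 ± 0.16 (limma adjusted p = 0.00131). The second probe set gave -0.44 (adjusted p = 0.116, over all probe sets). In C3H at 6 h the brightest probe set gave -0.45 ± 0.16 (adjusted p = 0.0738), with allergen arrays at 43.0, 61.5, 64.4, 79.3 and 74.1 and PBS arrays at 91.4, 95.8, 72.4, 113 and 94.3. The second one fell by 0.81 (adjusted p = 0.00515). Without C3H PBS replicate 3 or C3H allergen replicate 4 the brightest one passed too, with adjusted p = 0.0451 and 0.0499. At 24 h the differences were -0.07 ± 0.16 in AJ and -0.24 ± 0.16 in C3H.

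Per3, the period gene least needed for the rhythm itself, fell at 6 h in both strains. In AJ it read 113, 89.1, 89.7, 132 and 115 with PBS and 59.2, 46.0, 56.9, 47.0 and 58.2 with allergen. In C3H it read 151, 158, 149, 164 and 106 with PBS and 92.0, 86.2, 91.6, 99.2 and 71.7 with allergen. The groups did not overlap in either strain. The falls were -0.83 ± 0.17 (limma adjusted p = 0.000256) and -0.63 ± 0.17 (adjusted p = 0.0132). At 24 h the values were -0.44 ± 0.17 in AJ (adjusted p = 0.113), where the groups did not overlap, and -0.39 ± 0.17 in C3H. Without C3H allergen replicate 4 the latter was -0.56 and passed (adjusted p = 0.0319).

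The 3 probe sets of Per3 disagreed. In AJ at 6 h the brightest one gave the fall above, while the others gave -0.05 ± 0.18 and 0.18 ± 0.17, and the mean of the 3 gave -0.23 (limma adjusted p = 0.237). In C3H at 6 h the second brightest also fell, by 0.66 (adjusted p = 0.0154 over all probe sets), and the dimmest gave -0.17. In PBS lungs at 6 h, the second brightest probe set read 22.9, 44.8, 31.7, 40.9 and 25.3 in AJ and 103, 84.0, 78.0, 135 and 67.1 in C3H. The strains did not overlap on this probe set, and C3H was higher by 1.15 ± 0.17 (adjusted p = 2.07e-05, where 4.31% of all probe sets passed). The dimmest probe set was higher in C3H by 0.73 ± 0.18 (adjusted p = 0.0111), and the brightest one gave 0.39 ± 0.17 and did not pass. Over the 40 arrays the correlations between the 3 probe sets were 0.51 to 0.63.

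In C3H lungs at 24 h, 0 of the 9 genes passed with limma, against 3.24% of all genes. An unadjusted p under 0.05 was reached by 2, Nr1d2 and Per3. The members' median difference was -0.24, beside -0.04 over all genes. The groups did not overlap in Nr1d2 alone of the 9, as in 4.6% of all genes.

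The PBS arrays give the levels without allergen at both times. Between 6 h and 24 h, 2 of the 9 genes changed in AJ, against 5.5% of all genes, and 3 in C3H, against 3.22%. All of these fell, as 2.5% of all genes did in AJ and 1.46% in C3H. Groups did not overlap between the times in 6.19% and 4.74% of all genes. Of all calls in AJ, 54.5% were higher, or 39.2% with arrays centred on their medians. Cry1 fell in both strains, by -0.87 ± 0.20 in AJ (limma adjusted p = 0.00626) and -0.82 ± 0.20 in C3H (adjusted p = 0.0135), from 64.6, 43.3, 70.3, 55.4 and 50.5 at 6 h in AJ to the PBS values at 24 h given above. In C3H it went from 19.1, 68.8, 62.7, 92.4 and 70.6 to 17.5, 23.2, 29.6, 35.1 and 26.4, and replicate 1 at 6 h lay inside the range at 24 h. Per2 fell by -0.67 ± 0.16 in AJ (adjusted p = 0.00835), to 66.7, 72.8, 64.2, 64.6 and 70.0 at 24 h. These PBS arrays at 24 h lay within the range of the AJ allergen arrays at 6 h.

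Per1 followed the same course in C3H. Its PBS arrays read 167, 158, 121, 134 and 174 at 24 h, all below those at 6 h, for a fall of -1.12 ± 0.21 (limma adjusted p = 0.000887). The C3H allergen arrays at 6 h and the C3H PBS arrays at 24 h overlapped, with group means of 7.35 and 7.37. In AJ the PBS arrays at 24 h read 220.4, 253, 186, 252 and 233, a difference of -0.59 ± 0.21 that did not pass (adjusted p = 0.0767) and passed without replicate 3 at 6 h (-0.77, adjusted p = 0.0273). Per2 in C3H gave -0.62 ± 0.16 (adjusted p = 0.0175). The calls of Cry1 and Per2 in C3H were lost with only those groups fitted (adjusted p = 0.157 and 0.221) and without replicate 4 at 6 h (adjusted p = 0.0584 and 0.0549), and that of Per2 also without replicate 1 at 24 h, which read 20.9 where the other 4 read 55.4 to 76.0 (-0.39, adjusted p = 0.0783). The call of Per2 in AJ was lost with the RNA quality ratios as covariates (adjusted p = 0.0565).

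Arntl, Npas2, Clock, Nr1d1, Nr1d2 and Per3 did not pass between the PBS times in either strain. Nr1d1 gave 0.45 ± 0.22 in both. The strain difference of the PBS time change passed in 0 of the 9 genes with limma, none even at an unadjusted p under 0.05, against 0.194% of all genes. C3H against AJ in PBS lungs passed in 0 of the 9 at 6 h, against 4.52% of all genes, and in 0 at 24 h, against 2%. Unadjusted, 1 gene at each time was under 0.05: Per3 at 6 h, and Per1 at 24 h, where C3H was lower by -0.56 ± 0.21 and the strains did not overlap, as in 4.28% of all genes.

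**Figure D3:**
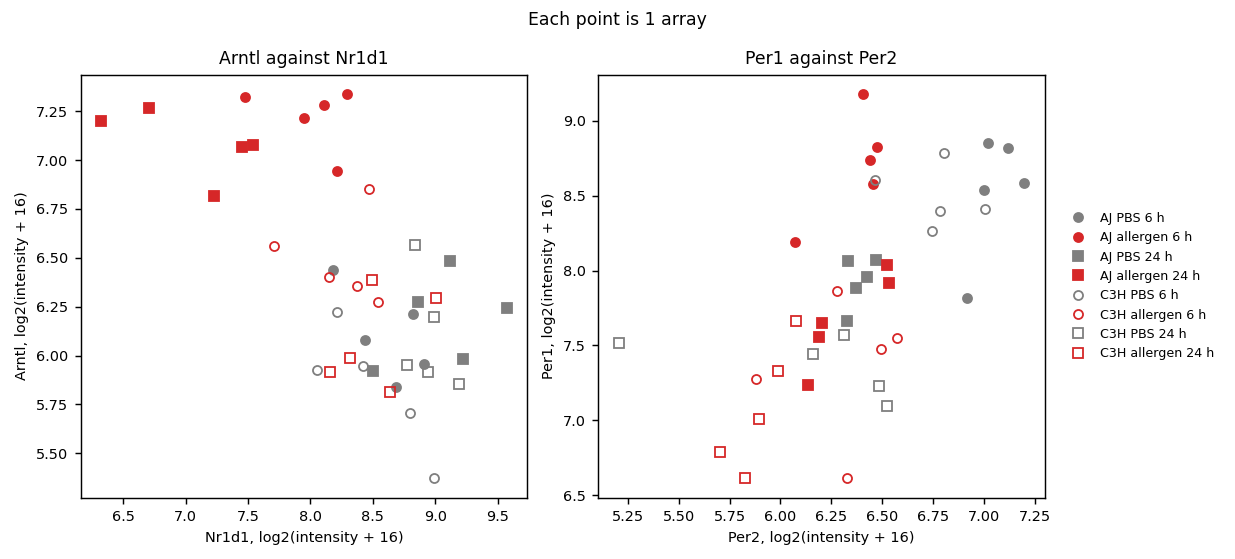
Levels of pairs of clock genes on the 40 arrays, as log2(intensity + 16). Points are grey for PBS and red for allergen, filled for AJ and open for C3H, circles at 6 h and squares at 24 h. Across all arrays Arntl ran against Nr1d1 (r = -0.67), while deviations from the group means gave -0.26.

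The members were compared with each other over the 40 arrays, which share groups, so the correlations are descriptions. Arntl and Npas2 gave r = 0.72, Arntl and Nr1d1 -0.67, and Arntl and Per3 -0.72. As deviations from the group means, these became 0.13, -0.26 and -0.08, so most of the relation lay between groups. Nr1d1 and Nr1d2 gave 0.57 over all arrays and -0.38 within groups. Clock and Nr1d2 gave 0.47 and 0.66, and both were low on C3H PBS replicate 2 at 6 h and on C3H allergen replicate 2 at 24 h. Per1 and Per2 gave 0.63 and 0.20.

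Among 9294 genes with higher levels, the gene most like Nr1d1 over the 40 arrays was Dbp (r = 0.82), a clock output factor, followed by Sema3b (0.81), and the least like was Pf4 (-0.84). For Per2 the most like was Tsc22d3 (0.82), which encodes the glucocorticoid-induced leucine zipper, then Lpin2. For Per1 these were Chka and Eva1c (both 0.82), and for Per3 Fancc (0.81) and Axin2 (0.80). For Arntl they were Itln1 (0.85) and Dab2 (0.84), with the keratin gene Krt19 at -0.90, and for Npas2 it was Arntl itself. For Nr1d2 they were Abi3bp (0.83) and Lama3 (0.80), with the complement gene C1qb at -0.88. Clock was most like Oxr1 (0.82) and Cry1 most like Vmp1 (0.75). On deviations from the group means the most like were other genes, such as Homer3 for Nr1d1 (0.74), Etfbkmt for Per2 (0.64) and Zswim7 for Arntl (0.63). Of the genes named here as most like a member, only Oxr1 for Clock was again among the 2 highest (0.80). For Arntl and Npas2 the deviations gave 0.13, as above. For the other pairs that value was not listed, so how far their likeness lay between groups is not shown.

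Clock modulators and outputs were taken as 2 further lists. Of 7 outputs, all measured, 6 passed in AJ at 6 h, 4 in AJ at 24 h, 5 in C3H at 6 h and 1 in C3H at 24 h, beside the shares of all genes given above. Nfil3, the repressor that competes for D-boxes, was the one output that rose. It went up by 1.88 ± 0.18 in AJ at 6 h, by 0.79 ± 0.18 in AJ at 24 h and by 0.73 ± 0.18 in C3H at 6 h. Dbp, Tef and Hlf, the activators that bind D-boxes, fell in those same 3 comparisons.

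Dbp fell by -1.79 ± 0.21 in AJ at 6 h (limma adjusted p = 2.94e-08), where the PBS arrays ran from 283 to 384 and the allergen arrays from 66.2 to 94.7. It fell by -2.48 ± 0.21 in AJ at 24 h and by -1.08 ± 0.21 in C3H at 6 h, and like Nr1d1 it differed between strains at 24 h (1.82 ± 0.30, C3H minus AJ, adjusted p = 0.00145). Tef fell by -1.55 ± 0.12, -0.60 ± 0.12 and -0.86 ± 0.12 in those 3 comparisons, and was the one output that passed in C3H at 24 h (-0.42 ± 0.12). Hlf fell by -1.36 ± 0.14, -0.79 ± 0.14 and -0.68 ± 0.14. Wee1, a cell cycle kinase, fell at 6 h in AJ (-0.72) and in C3H (-0.64), and the deubiquitinase gene Usp2 in AJ at 6 h (-0.59).

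Of 16 modulators, 11 were measured, and 2 passed in AJ at 6 h, where 19% of all genes passed, 0 in AJ at 24 h (7.8%), 2 in C3H at 6 h (7.67%) and 0 in C3H at 24 h (3.24%). At 24 h 1 and 0 of them had an unadjusted p under 0.05 (limma). The count in AJ at 6 h was near the share of all genes. Bhlhe40, an E-box repressor that responds to many signals, rose at 6 h by 1.22 ± 0.16 in AJ (adjusted p = 2.57e-07) and by 0.69 ± 0.16 in C3H (adjusted p = 0.00432). Rora, the activator at RORE sites, fell in AJ at 6 h (-0.56 ± 0.19). Btrc, part of a ubiquitin ligase for PER proteins, fell in C3H at 6 h (-0.58 ± 0.18). Cry2, the other Cry gene, passed in no allergen comparison. Its PBS group means were 7.17 at 6 h and 6.28 at 24 h in C3H (SD 0.39 and 0.72). In AJ they were 6.81 and 6.58 (SD 0.15 and 0.50).

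**Figure D4:**
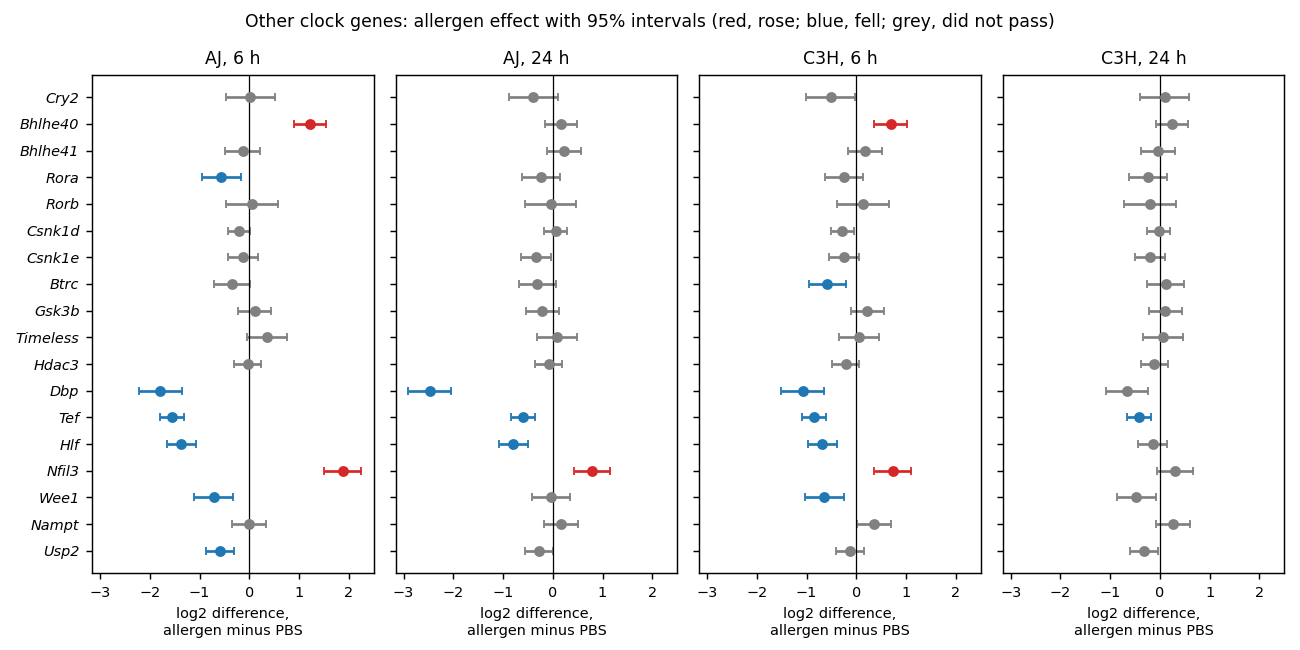
Difference between allergen and PBS, as log2 with 95% intervals from limma, for the 11 clock modulators and 7 clock outputs that were measured, in both strains at both times (5 arrays per group). Nfil3 rose and Dbp, Tef and Hlf fell in AJ at both times and in C3H at 6 h.

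Marker RNA of other cell types changed in these comparisons too. Of all genes, 19% passed in AJ at 6 h, 7.8% in AJ at 24 h, 7.67% in C3H at 6 h and 3.24% in C3H at 24 h. All 8 measured neutrophil markers rose in AJ at 6 h, and their summed intensity went from 565.5 to 1444 in PBS to 5594 to 8481 with allergen. In AJ at 24 h 3 of 8 rose (515 to 611 against 1261 to 4982), in C3H at 6 h 4 of 8 (619 to 2059 against 1366 to 8690.1), and in C3H at 24 h 0 of 8 (1 unadjusted). Macrophage markers rose in 5, 7, 4 and 5 of 9, in the same order, and 1 fell in AJ at 6 h. Endothelial markers fell in 4, 1, 3 and 1 of 7. T and NK cell markers rose in 2, 2, 0 and 1 of 8, and B and plasma cell markers in 2, 2, 1 and 1 of 4. Lung epithelial markers fell in 2, 3, 1 and 0 of 8. Of 4 measured eosinophil markers none passed (1, 0, 1 and 2 at an unadjusted p under 0.05, limma). These 4 were dim, with median intensities from 16.5 (Prg2) to 27.7 (Siglecf), near the pseudocount of 16. Changes in them are understated, so these counts cannot show that eosinophil RNA stayed the same. No marker was listed at 0 on any array. The part of these cells in the clock genes' results was not tested.

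Muscle and fat markers passed in 1 of the 4 allergen comparisons. In AJ at 24 h, 3 of 10 cardiac and skeletal muscle markers and 1 of 4 adipose markers fell. The summed muscle intensity was 5645 to 10389 with PBS and 2236 to 5963 with allergen, and none of these markers passed in the other 3 allergen comparisons. Single arrays stood apart there. The muscle sum was 15602 on AJ allergen replicate 5 at 6 h, where the others had 1936 to 5869. It was 2155 on C3H allergen replicate 4 at 24 h, where the others had 8362 to 9720. Per3 passed in C3H at 24 h without that last array, and the part of its tissue content was not tested. In PBS lungs 1 of the 10 muscle markers, Actc1, was higher in C3H than in AJ at both times (0.95 at each). With the mean muscle and adipose levels as covariates the falls of Nr1d1 and Nr1d2 in AJ at 24 h were -1.80 and -1.50 and Arntl rose by 0.94, all still past the threshold. Within groups, Per1 ran against the muscle mean (r = -0.56 over 40 arrays). With these covariates Per1 passed in AJ at 24 h too (-0.70, limma adjusted p = 0.04), and its strain difference at 6 h was -1.22 (adjusted p = 0.00542).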

How the data were processed

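RNA from whole mouse lung was measured on 40 Affymetrix arrays, 5 in each of 8 groups. The deposited values are the authors' probe set intensities on a linear scale. From the values, each array had been scaled to a trimmed mean between 150.036 and 150.046 (2% trimmed at each end). The software and background step are not given in the sources used here. No replicate was pooled by the authors as far as the labels say, and precision rests on the number of arrays. Of 22690 probe sets, 64 were controls, 20380 carried 1 symbol in the platform annotation, 691 several and 1555 none.

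For each gene with 1 symbol, the probe set with the highest mean was used. limma 3.58.1 in R 4.3.3 was fitted to log2(intensity + 16) with 8 group means, and contrasts were tested two-sided with Benjamini-Hochberg adjustment over 12393 genes and a threshold of 0.05. The script was tested on simulated data. All probe sets were fitted in the same way, with adjustment over 22626. The members, the 2 clock lists and the marker lists were chosen with earlier results of these data known. All members are named. Of each clock list, the 4 largest changes that passed in each allergen comparison are named by rule. Wee1, Usp2 and Cry2 were named in addition after their values were seen. Genes alike are the 2 highest and the lowest by correlation, of which some are left out for length. Alternatives were pseudocounts of 1 and 64, quantile normalization, median centring, no dim genes, the mean of probe sets, array weights, only the groups compared, tissue covariates, a replicate block and each array left out. RNA quality covariates were added after seeing the data.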

Additional observations from a re-analysis of the deposited data

Results flagged for a closer look

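Of 45 tests of a difference between effects in the members, counting those of the PBS time change, 4 passed, all for the allergen effect. Of all genes, 2.17% and 0.46% passed between strains at 6 h and 24 h, and 5.63% and 0.88% between times in AJ and C3H. For the PBS time change it was 0.194%. Per1 differed between strains at 6 h (-1.32 log2, C3H minus AJ). At 24 h Arntl (-0.92) and Nr1d1 (1.58) differed between strains. The Arntl call held in 8 of 11 alternative settings and in 11 of 20 fits without 1 array. That of Nr1d1 was lost with the muscle and adipose covariates. In AJ lungs Nr1d1 differed between times (-1.41, 24 h minus 6 h).

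In 7 of 72 sets of 5 arrays, 1 array stood far from its group, where chance gives about 1 in 20, or 3.6 sets. Levels here are log2(intensity + 16). In the C3H PBS group at 6 h these were Npas2 on replicate 5 (4.54, the others 4.09 to 4.18), Clock on replicate 2 (5.61, the others 6.38 to 6.57), Cry1 on replicate 1 (5.13, the others 6.30 to 6.76) and Per3 on replicate 5 (6.93, the others 7.37 to 7.49). Clock was low on replicate 2 of the C3H allergen group at 24 h (5.89, the others 6.57 to 6.73). Per2 was low on replicate 5 of AJ allergen at 6 h (6.07, the others 6.41 to 6.47) and on replicate 1 of C3H PBS at 24 h (5.20, the others 6.16 to 6.52). Without that last array, Per2 passed between allergen and PBS in C3H at 24 h (-0.47, limma adjusted p = 0.0306). In that comparison Per3 passed without C3H allergen replicate 4 (-0.56, adjusted p = 0.0319).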

How the results depend on the processing

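No value that passed changed its direction under any alternative run. Moves in the count of members that passed included these. The strain difference at 24 h, 2 genes in the report, gave 1 with pseudocount 1, 1 with only its groups fitted and 0 with the muscle and adipose covariates. The time difference in AJ, 1 gene, gave 2 with pseudocount 64 and 2 with only its groups. C3H against AJ in PBS, 0 genes at both times, gave 1 at 6 h with the mean of all probe sets, and 1 at 24 h with either the tissue covariates or only its groups. Allergen in C3H at 24 h, 0 genes, gave 1 with array weights. Allergen in C3H at 6 h, 3 genes, gave 4 with quantile normalization, pseudocounts of 1 and 64, the mean of probe sets, array weights and the tissue covariates. The PBS times gave 1 in AJ with the RNA quality covariates, chosen after seeing the data, and 1 in C3H with only its groups. Array weights raised these to 3 in AJ and 4 in C3H, and pseudocount 1 and the RNA quality covariates also gave 4 in C3H. Leaving out 1 array at a time gave 5 to 6 genes in AJ at 6 h, 3 to 5 in AJ at 24 h, 3 to 4 in C3H at 6 h and 0 to 1 in C3H at 24 h. It gave 1 to 2 for the strain difference at 24 h, 2 to 3 for the PBS times in AJ and 1 to 3 in C3H, and left the other counts as they were. Array numbers showed little pairing: same-numbered arrays deviated together with a mean r of 0.02, beside -0.005 for other numbers. Of 140 same-numbered pairs, 36 were over 0.1. Whether a number marks a shared batch cannot be told from this. With the replicate block the allergen comparisons gave 5, 5, 3 and 0 genes, the strain differences 1 and 2 and the PBS times 3 and 3. Of 913 values that passed in neither fit, 34 changed sign, none larger than 0.39. The depth of an array is unknown, and Npas2 is limited by its dim signal.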
